A study of Mus musculus with 8 samples.

Results

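The interferon-stimulated genes described here are 43 mouse genes that interferons are known to induce, measured in soleus, a slow muscle of the lower leg. Their members were taken by name: every array spot that is not a control and carries 1 of the 43 listed gene names. All 43 names were found, on 79 probes, among 37074 names on the array. A gene was tested where at least 1 of its probes was well above background on 4 or more of the 8 arrays, and its brightest such probe stood for it, which kept 22291 genes in all and 41 of the 43 members. Of these 41, 40 were well above background on all 8 arrays, and the chemokine gene Cxcl10 was so on 3 arrays of each group. The other two, Mx1 and Oas3, were well above background on 0 arrays and are left without a value.

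The samples came from male C57BL/6J mice that ate a high-fat diet and were aged 14 weeks, with the experiment begun at 8 weeks of age. The 4 samples of the P. gingivalis group are filed as mice given Porphyromonas gingivalis, a bacterium of human gum disease, through a feeding needle in 100 µL of saline. The 4 samples of the saline group are filed as mice given saline alone, and both groups are labelled as sampled after 6 weeks of oral administration. From each sample 200 ng of total RNA was labelled with the dye Cy3 and hybridised to 1 array, so the design asks how an oral bacterium alters gene expression in a distant muscle. Whether the 4 arrays of a group stand for 4 mice is not stated in the labels, and the p-values thus cover only the spread among these arrays, which may be technical. All 9 genes on a marker list for slow soleus fibre, such as Myh7 and Tnnt1, were well above background on every array. So were all 9 on a fast fibre list, and these counts thus do not set soleus apart from other muscles. The slow list also holds Myh2, which encodes a fast (type 2A) myosin.

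Several facts touch every value below. The P. gingivalis arrays filled 1 side of a single slide and the saline arrays the opposite one, and an effect of the side cannot be told apart from one of the group. P. gingivalis 2 was not in range in the scanner's extraction check, while the other 7 arrays were. The P. gingivalis arrays had 34853 to 35365 probes well above background each, against 30177 to 34076 on the saline arrays. Directions follow the sample records. In the authors' deposited table, each of the 8 columns follows the array of the other group with the same number, so by its column names most differences below run the other way there, with 4 of 41 members lower. Of the 41, only Rsad2 has the same sign in both, though for 7 of them that table's probe is another one than was used here. Ifi35 is 1 of these 7, and the probe that table holds for it had the same sign on the scanner files. Which of the sources is right is not settled here.

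Interferons are secreted proteins that warn cells of infection. Type I and type III interferons act through their receptors and the kinases JAK1 and TYK2 on STAT proteins, among them STAT2, which joins IRF9 in a complex that binds the interferon-stimulated response element (ISRE) in promoters, while type II interferon acts on the gamma-activated site (GAS). The induced genes encode sensors of foreign nucleic acid, the transcription factors of the same pathway, proteins that block viral growth, GTPases that attack intracellular microbes, and the machinery that presents antigens.

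The promoters of 8 members are shown because they let the ISRE be read beside the array values that follow: Isg15, Oas1a, Ifit1, Ifit3, Gbp3, Igtp and Irgm1 hold it, and Psmb9 does not. Gbp3 has another annotated start, not printed, with its window at chr3:142560196-142560355, whose promoter holds 0 ISRE cores. Each run gives the 160 bases before the annotated start, 5′ to 3′ on the gene's own strand, from RefSeq on assembly GRCm38.p6. Capitals mark the ISRE core, GAAA and GAAA around any 2 bases, or its reverse complement, and longer capital runs are overlapping matches. The windows lie at chr4:156200819-156200978 (minus strand) for Isg15, chr5:120907526-120907685 (minus strand) for Oas1a, chr19:34640729-34640888 (plus strand) for Ifit1 and chr19:34583369-34583528 (plus strand) for Ifit3. Those of the other four are chr3:142559884-142560043 (plus strand) for Gbp3, chr11:58199396-58199555 (plus strand) for Igtp, chr11:48871421-48871580 (minus strand) for Irgm1 and chr17:34187331-34187490 (minus strand) for Psmb9.
Isg15: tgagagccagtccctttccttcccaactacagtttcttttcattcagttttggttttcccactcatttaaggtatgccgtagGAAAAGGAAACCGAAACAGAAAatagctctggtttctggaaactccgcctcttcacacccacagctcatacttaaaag
Oas1a: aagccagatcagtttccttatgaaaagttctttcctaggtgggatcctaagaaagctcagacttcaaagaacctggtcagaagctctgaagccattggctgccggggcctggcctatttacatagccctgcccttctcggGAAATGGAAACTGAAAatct
Ifit1: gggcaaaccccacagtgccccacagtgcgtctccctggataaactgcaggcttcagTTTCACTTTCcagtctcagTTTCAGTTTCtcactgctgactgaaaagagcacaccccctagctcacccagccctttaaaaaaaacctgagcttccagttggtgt
Ifit3: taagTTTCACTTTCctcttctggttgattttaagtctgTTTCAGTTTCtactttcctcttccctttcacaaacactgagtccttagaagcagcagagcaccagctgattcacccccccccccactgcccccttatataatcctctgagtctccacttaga
Gbp3: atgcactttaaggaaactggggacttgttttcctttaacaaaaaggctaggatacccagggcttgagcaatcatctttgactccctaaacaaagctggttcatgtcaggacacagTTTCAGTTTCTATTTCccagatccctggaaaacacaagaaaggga
Igtp: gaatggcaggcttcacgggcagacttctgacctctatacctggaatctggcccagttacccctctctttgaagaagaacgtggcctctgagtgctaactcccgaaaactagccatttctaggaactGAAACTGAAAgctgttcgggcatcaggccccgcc
Irgm1: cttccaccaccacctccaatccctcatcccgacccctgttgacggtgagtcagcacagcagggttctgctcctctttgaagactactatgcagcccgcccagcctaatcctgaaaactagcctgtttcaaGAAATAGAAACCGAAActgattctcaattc
Psmb9: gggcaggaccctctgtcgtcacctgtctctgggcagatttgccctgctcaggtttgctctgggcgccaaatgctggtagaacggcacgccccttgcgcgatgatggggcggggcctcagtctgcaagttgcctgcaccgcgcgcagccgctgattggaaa

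Among the 33 members with a promoter in the RefSeq table, 18 (54.5%) held the ISRE core on either strand between 250 bases before and 50 after the start. The same was true of 1079 (3.99%) of 27025 genes in that table. The GAS letters TTCNNNGAA stood in 10 of the 33 (30.3%), against 9.55% of the genes, and 6 members held both, with the motifs overlapping in 2 promoters. Promoters were not matched for Mx1, Mx2, Oas2, Dhx58, Usp18, Gbp4, Iigp1, Parp9, Parp14 and Zbp1. More than 1 ISRE core was found in 8 members, and in Isg15, which encodes a ubiquitin-like protein attached to other proteins during infection, 3 cores overlap into a single run that starts 78 bases before the gene. In Oas1a, an oligoadenylate synthetase gene, a pair of overlapping cores starts 20 bases before the gene. A match describes letters in a window, and no match says only that these letters are not in it.

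As a set, the members had lower signals on the P. gingivalis arrays than on the saline arrays. Of the 41 with a value, 38 (92.7%) had a negative log2 difference, P. gingivalis minus saline, while 52.3% of all 22291 genes did. With median centring, which adds 1 amount to every gene of an array, 33 of the 41 were lower, and with the other scalings tried 38. The median difference of the members was -0.33 and that of all genes was -0.011. The members ranged from -0.94 for Oas1a to 0.16 for Trim25, with 11 of the 41 beyond 0.5 in size and 13 within 0.2. Because each sample is a whole muscle, fewer cells of a type and less RNA per cell cannot be told apart.

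No member passed the test across all genes. In limma's fit, 0 of 41 had an adjusted p under 0.05, where 0.117% of all genes did, and the lowest adjusted p of a member was 0.131. At an unadjusted p under 0.05, 13 members were lower and 1 was higher, beside 9.69% and 10.0% of all genes. The values of the groups did not overlap for 3 members that were lower and 1 that was higher, which is 7.32% of the members for the lower direction and close to the 6.09% of all genes, where 7.33% did so in the higher direction. All genes past the threshold numbered 26, of which 18 were lower and 8 higher, and none was a member. That balance depends on the scaling: it was 183 lower and 270 higher with another background correction (normexp), 59 and 138 with quantile normalization, and 95 and 2282 with median centring, which itself raises the median of all genes to 0.14. It stayed on the lower side, at 27 and 10, with the 75th percentile taken over probes above background on all arrays.

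**Figure D1:**
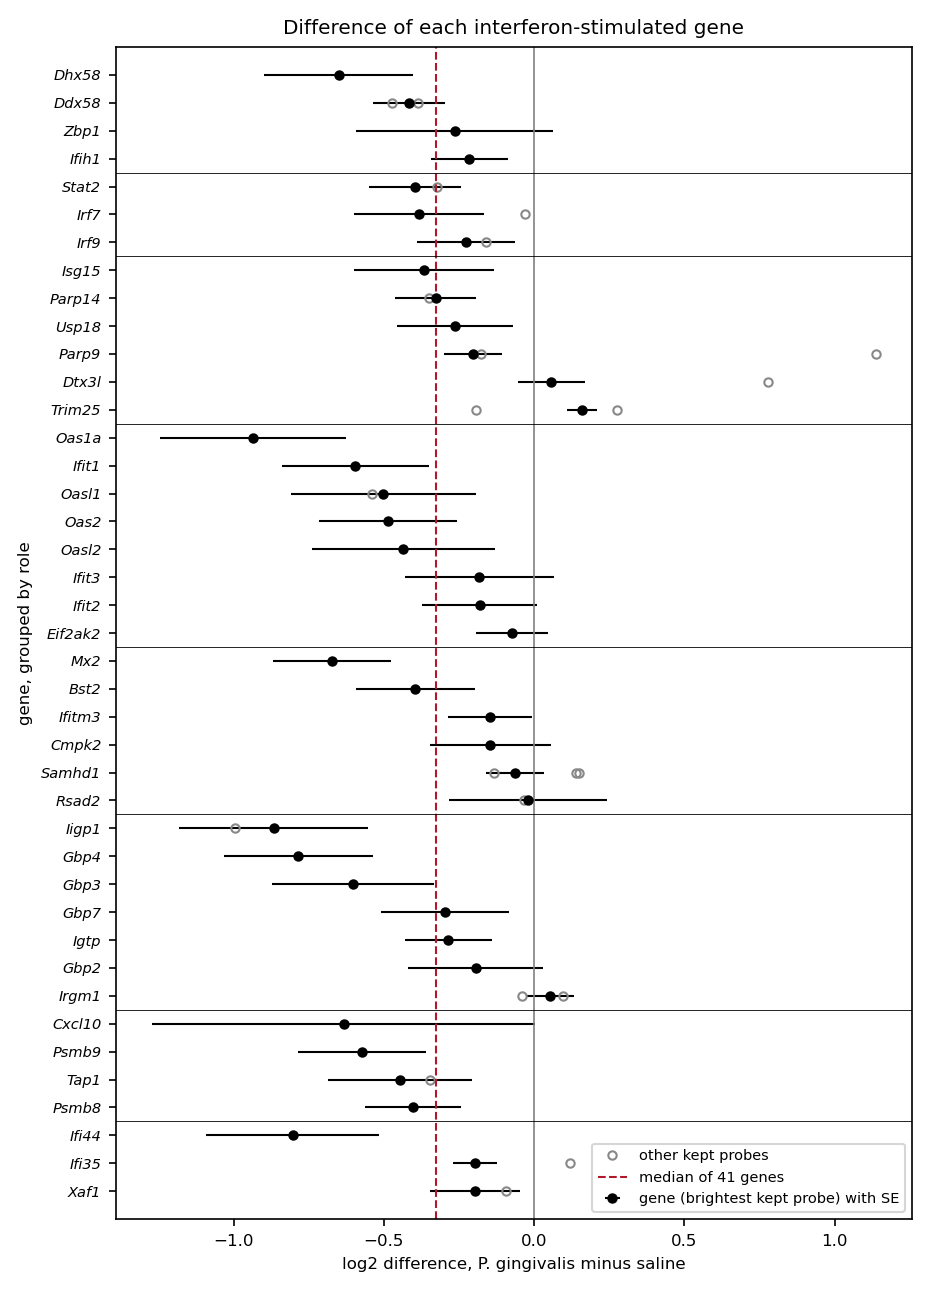
Log2 difference, P. gingivalis minus saline, of the 41 members with a value (horizontal axis), grouped by role down the page. Filled points with bars are the brightest kept probe of a gene with its standard error, open points are the gene's other kept probes, and the dashed line is the median of -0.33. Filled points lie left of 0 for 38 genes and right of it for Trim25, Dtx3l and Irgm1.

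The sensors of foreign nucleic acid were all lower, 4 of 4, with a median of -0.34. Ddx58 encodes RIG-I, which detects viral RNA in the cytosol, and its probe lies at chr4:40151893-40151952 in build mm9. Its log2 signals relative to the array's 75th percentile, the scale of all values below, were -1.50, -1.34, -1.19 and -1.07 on P. gingivalis 1 to 4 and -0.98, -0.62, -1.01 and -0.83 on saline 1 to 4. Every P. gingivalis array was below every saline array, and the gap between the closest arrays of the groups was small beside the range within each group. The difference was -0.42 ± 0.12 (SE, n = 4 and 4), or 1.33-fold lower (limma, adjusted p = 0.131), the lowest among the members.

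Dhx58 encodes LGP2, which regulates RIG-I and its relative MDA5. Its values were -3.89, -4.20, -4.68 and -4.16 on P. gingivalis 1 to 4 and -4.01, -2.97, -3.54 and -3.82 on saline 1 to 4. The groups overlapped, since P. gingivalis 1 lay above saline 1, and saline 2 was the highest. Its difference was -0.65 ± 0.25 (limma, adjusted p = 0.209). Ifih1, the gene of MDA5, stood at -2.19, -2.20, -2.18 and -1.73 on P. gingivalis 1 to 4 and -2.03, -1.66, -1.92 and -1.84 on saline 1 to 4. P. gingivalis 4 alone was high in its group, and the difference of -0.22 ± 0.13 did not pass (limma, adjusted p = 0.393). Zbp1, a sensor of unusual nucleic acid helices, differed by -0.26 ± 0.33.

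The transcription factors of the response were lower as well, 3 of 3, with a median of -0.38. Stat2, which is phosphorylated at the type I receptor, stood at -0.81, -0.67, -0.42 and -0.35 on P. gingivalis 1 to 4 and -0.28, 0.20, -0.41 and -0.18 on saline 1 to 4. The groups overlapped at P. gingivalis 4 alone, which lay above saline 3. The difference was -0.40 ± 0.15 (limma, adjusted p = 0.215).

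Irf7, the regulator that amplifies type I interferon production, stood at 0.68, 0.59, 0.59 and 1.03 on P. gingivalis 1 to 4 and 0.75, 1.74, 0.98 and 0.96 on saline 1 to 4. Saline 2 was far above the other arrays, while P. gingivalis 4 was above saline 1, 3 and 4. The difference was -0.38 ± 0.22 (limma, adjusted p = 0.365), and another kept Irf7 probe differed by only -0.03. Irf9, the DNA-binding partner of STAT2, stood at -0.18, 0.04, 0.23 and 0.16 on P. gingivalis 1 to 4 and 0.27, 0.71, -0.06 and 0.23 on saline 1 to 4. Its groups overlapped widely, and the difference was -0.23 ± 0.16 (limma, adjusted p = 0.476).

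The genes of ISG15 conjugation, ubiquitin and ADP-ribosylation were mixed, with 4 of 6 lower and a median of -0.23. Isg15, whose promoter holds the overlapping cores printed above, stood at 0.13, 0.10, 0.40 and 0.52 on P. gingivalis 1 to 4 and 0.27, 1.25, 0.25 and 0.83 on saline 1 to 4. Saline 2 and saline 4 were high, while saline 1 and 3 lay among the P. gingivalis arrays. The difference was -0.37 ± 0.23 (limma, adjusted p = 0.418).

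Trim25, a ubiquitin ligase that acts with RIG-I, was the 1 member higher on every P. gingivalis array. It stood at 4.57, 4.60, 4.54 and 4.49 on P. gingivalis 1 to 4 and 4.42, 4.38, 4.43 and 4.33 on saline 1 to 4. The groups did not overlap, and their ranges were narrow. The difference was 0.16 ± 0.05 (SE, n = 4 and 4), or 1.12-fold higher (limma, adjusted p = 0.158). With median centring it was 0.31 and passed (limma, adjusted p = 0.028), a scaling that raised all genes. The other kept Trim25 probes disagreed with each other, at 0.28 and -0.19.

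Parp14, an ADP-ribosyltransferase, stood at -0.17, -0.34, -0.09 and 0.20 on P. gingivalis 1 to 4 and 0.10, 0.48, 0.06 and 0.27 on saline 1 to 4. Only P. gingivalis 4 lay among the saline arrays. The difference was -0.33 ± 0.14 (limma, adjusted p = 0.238). Usp18, which removes ISG15 from proteins, differed by -0.26 ± 0.19. Parp9 differed by -0.20 ± 0.10 and Dtx3l, a ubiquitin ligase that pairs with PARP9, by 0.06 ± 0.11. For both of these genes a dimmer probe was higher on the P. gingivalis arrays, by 1.14 for Parp9 and 0.78 for Dtx3l. That Dtx3l probe was well above background on 4 P. gingivalis arrays and 0 saline arrays, and that Parp9 probe on 1 saline array.

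The Ifit proteins, oligoadenylate synthetases and the kinase PKR were lower in all 8 with a value, with a median of -0.46. Oas1a, whose product makes the messenger that activates RNase L, had the greatest difference of the members. Its probe at chr5:121346735-121346794 (mm9) stood at -2.32, -2.43, -2.04 and -2.12 on P. gingivalis 1 to 4 and -1.48, -0.40, -2.03 and -1.26 on saline 1 to 4. The groups did not overlap, but saline 3 lay beside P. gingivalis 3, and saline 2 was far above the rest. Oas1a averaged -2.23 ± 0.18 on the P. gingivalis arrays and -1.29 ± 0.68 on the saline arrays (SD, n = 4 each). The difference was -0.94 ± 0.31 (SE), or 1.91-fold lower (limma, adjusted p = 0.166).

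Ifit1 encodes a protein that binds the ends of viral RNA. It stood at -3.65, -2.91, -3.29 and -2.56 on P. gingivalis 1 to 4 and -2.69, -2.10, -2.71 and -2.52 on saline 1 to 4. The groups overlapped at P. gingivalis 4, which lay above saline 1 and 3. The difference was -0.59 ± 0.24 (limma, adjusted p = 0.236). Ifit3, of the same family and also on chromosome 19, stood at -1.20, -0.97, -0.79 and -0.46 on P. gingivalis 1 to 4 and -1.04, -0.07, -1.03 and -0.55 on saline 1 to 4. Without saline 2 the Ifit3 groups were level, with a difference of 0.02, while all 8 arrays gave -0.18 ± 0.25 (limma, adjusted p = 0.712). Both promoters printed above hold 2 separate ISRE cores.

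Oas2, a larger oligoadenylate synthetase, stood at -1.12, -1.06, -0.89 and -0.50 on P. gingivalis 1 to 4 and -0.98, 0.07, -0.33 and -0.37 on saline 1 to 4. The difference was -0.49 ± 0.23 (limma, adjusted p = 0.287), and saline 1 lay among the P. gingivalis arrays. Among the others, the OAS-like genes Oasl1 and Oasl2 differed by -0.50 and -0.43. Ifit2 differed by -0.18 and Eif2ak2, the gene of PKR, by -0.07, which the shift of all genes under median centring brings above 0.

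**Figure D2:**
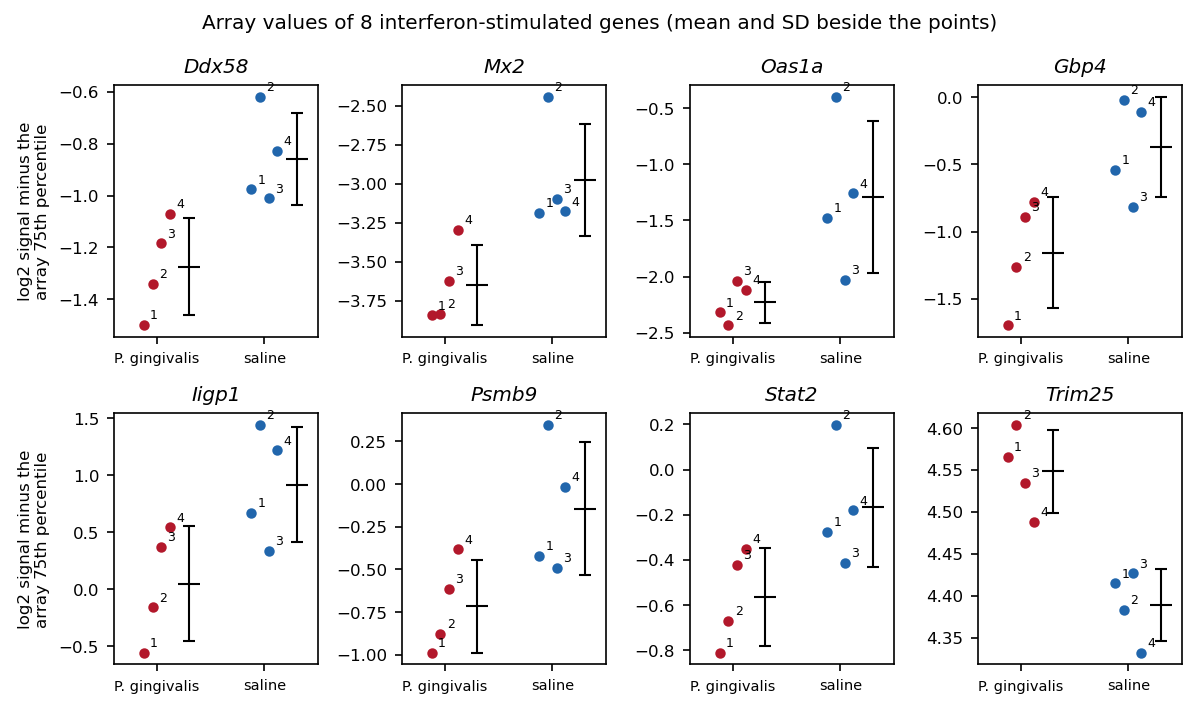
Log2 signal minus the array's 75th percentile (vertical axes, scaled per gene) for 8 members on each array, P. gingivalis left and saline right in each panel, with replicate numbers beside the points and mean with SD beside each group. The groups do not overlap for Ddx58, Mx2, Oas1a and Trim25, and saline 2 is the highest array for each gene drawn except Trim25.

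The restriction factors were lower in all 6 with a value, with a median of -0.15, and the shift of all genes under median centring brings Ifitm3, Samhd1, Cmpk2 and Rsad2 above 0. Mx2 encodes a dynamin-like GTPase and its probe lies at chr16:97782327-97782386 (mm9). It stood at -3.84, -3.83, -3.62 and -3.30 on P. gingivalis 1 to 4 and -3.19, -2.44, -3.10 and -3.18 on saline 1 to 4. The groups did not overlap, and saline 2 stood apart above the other saline arrays. The difference was -0.67 ± 0.20 (SE, n = 4 and 4), or 1.59-fold lower (limma, adjusted p = 0.133).

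Ifitm3, which stops viruses from fusing with the cell membrane, stood at 3.11, 3.08, 3.32 and 3.39 on P. gingivalis 1 to 4 and 3.49, 3.66, 3.04 and 3.32 on saline 1 to 4. Saline 3 was the lowest of all 8 arrays, and the difference of -0.15 ± 0.14 did not pass (limma, adjusted p = 0.588). Samhd1, which depletes the building blocks of DNA, stood at 1.12, 1.12, 1.34 and 1.44 on P. gingivalis 1 to 4 and 1.21, 1.41, 1.24 and 1.43 on saline 1 to 4. Its groups overlapped, its probes had both signs, and the difference was -0.06 ± 0.10 (limma, adjusted p = 0.738). Bst2, the gene of the virus tether, differed by -0.40 ± 0.20, Cmpk2, a nucleotide kinase, by -0.15 ± 0.20, and Rsad2, the gene of viperin, by -0.02 ± 0.26.

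The guanylate-binding proteins and immunity-related GTPases, which attack compartments that hold microbes, were lower in 6 of 7 with a median of -0.30. Gbp4 stood at -1.70, -1.26, -0.89 and -0.78 on P. gingivalis 1 to 4 and -0.54, -0.02, -0.82 and -0.11 on saline 1 to 4. The groups overlapped at saline 3 alone, which lay just below P. gingivalis 4. The difference was -0.79 ± 0.25 (limma, adjusted p = 0.153), or 1.72-fold lower. Iigp1 stood at -0.56, -0.16, 0.37 and 0.54 on P. gingivalis 1 to 4 and 0.67, 1.44, 0.34 and 1.22 on saline 1 to 4. Saline 3 lay below 2 of the P. gingivalis arrays. The difference was -0.87 ± 0.31 (limma, adjusted p = 0.193), or 1.82-fold lower.

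Irgm1, which controls other GTPases of the family, did not share this. It stood at 1.01, 0.97, 1.09 and 0.90 on P. gingivalis 1 to 4 and 0.98, 1.10, 0.87 and 0.80 on saline 1 to 4, with widely overlapping groups. The difference was 0.05 ± 0.08 (limma, adjusted p = 0.738), and its promoter holds overlapping ISRE cores. Gbp3 differed by -0.60 ± 0.27, Gbp7 by -0.30 ± 0.21, Igtp by -0.29 ± 0.14 and Gbp2 by -0.19 ± 0.22.

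Antigen processing genes and the chemokine Cxcl10 were lower in 4 of 4, with a median of -0.51. Psmb9 and Psmb8 encode catalytic subunits of the immunoproteasome, which cuts proteins into peptides for display to T cells. Psmb9 stood at -0.99, -0.88, -0.62 and -0.38 on P. gingivalis 1 to 4 and -0.42, 0.35, -0.49 and -0.01 on saline 1 to 4. Saline 3 lay below P. gingivalis 4, and saline 1 just below it too. The difference was -0.57 ± 0.21 (limma, adjusted p = 0.2), for a gene with no ISRE core in the window printed above.

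Psmb8 stood at -0.37, -0.45, -0.27 and -0.09 on P. gingivalis 1 to 4 and 0.04, 0.42, -0.30 and 0.28 on saline 1 to 4, with saline 3 below 2 of the P. gingivalis arrays. The difference was -0.40 ± 0.16 (limma, adjusted p = 0.221). Tap1, a subunit of the peptide transporter, differed by -0.45 ± 0.24. Cxcl10, which attracts T cells, differed by -0.63 ± 0.64, with an SD of 0.94 among the P. gingivalis arrays and 1.11 among the saline arrays.

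Of the remaining induced genes, all 3 were lower, with a median of -0.20. Ifi44 stood at -4.64, -4.69, -4.25 and -3.99 on P. gingivalis 1 to 4 and -3.94, -2.81, -4.06 and -3.55 on saline 1 to 4. Saline 2 was by far the highest and saline 3 lay below P. gingivalis 4. The difference was -0.80 ± 0.29 (limma, adjusted p = 0.189). Ifi35 stood at 2.56, 2.35, 2.33 and 2.27 on P. gingivalis 1 to 4 and 2.54, 2.66, 2.58 and 2.52 on saline 1 to 4. Its groups overlapped only at P. gingivalis 1, and the difference was -0.20 ± 0.07 (limma, adjusted p = 0.204), though another kept probe was at 0.12. Xaf1, a pro-apoptotic gene, stood at -0.96, -1.29, -0.92 and -0.77 on P. gingivalis 1 to 4 and -0.95, -0.56, -1.05 and -0.59 on saline 1 to 4, a difference of -0.20 ± 0.15 (limma, adjusted p = 0.499).

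Several members have more than 1 kept probe. Of 63 kept member probes, 53 were lower on the P. gingivalis arrays. Among the 16 members with several kept probes, all probes of a gene had the same sign for 11. The others were Parp9, Trim25, Samhd1, Irgm1 and Ifi35. For Dtx3l both kept probes were higher, but the dimmer was well above background on 4 P. gingivalis arrays and 0 saline arrays. It was kept only through the group where it was high, so its sign adds nothing to the agreement of probes.

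The members varied together from array to array within each group. Each member's values were set against its own mean over the 8 arrays, and the median of these deviations was -0.36, -0.30, -0.12 and 0.09 on P. gingivalis 1 to 4 and 0.01, 0.56, -0.09 and 0.26 on saline 1 to 4. Saline 2 had the highest value of all 8 arrays for 35 of the 41 members, where it was the highest for 13.7% of all genes. P. gingivalis 1 was the lowest of all for 19 members, beside 11.9% of all genes, and P. gingivalis 2 for 11, beside 10.6%. P. gingivalis 4 was the highest of its group for 31 members, and saline 3 was the lowest of its group for 25, where each was so for 24.8% of all genes.

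These arrays set how far the groups part. P. gingivalis 1 lay below every saline array for 30 members, P. gingivalis 2 for 27, P. gingivalis 3 for 15 and P. gingivalis 4 for 6. Among all genes these shares were 23.8%, 24.2%, 24.6% and 27.9% on P. gingivalis 1 to 4. Saline 2 lay above every P. gingivalis array for 38 members, saline 4 for 25, saline 1 for 13 and saline 3 for 6. Among all genes these shares were 26.5% on saline 2, 26.1% on saline 4, 27.9% on saline 1 and 24.8% on saline 3. The median SD of the members was 0.22 on the P. gingivalis arrays and 0.36 on the saline arrays, while that of all genes was 0.13 in each group. The SD was larger on the P. gingivalis arrays for 10 of the 41 members.

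**Figure D3:**
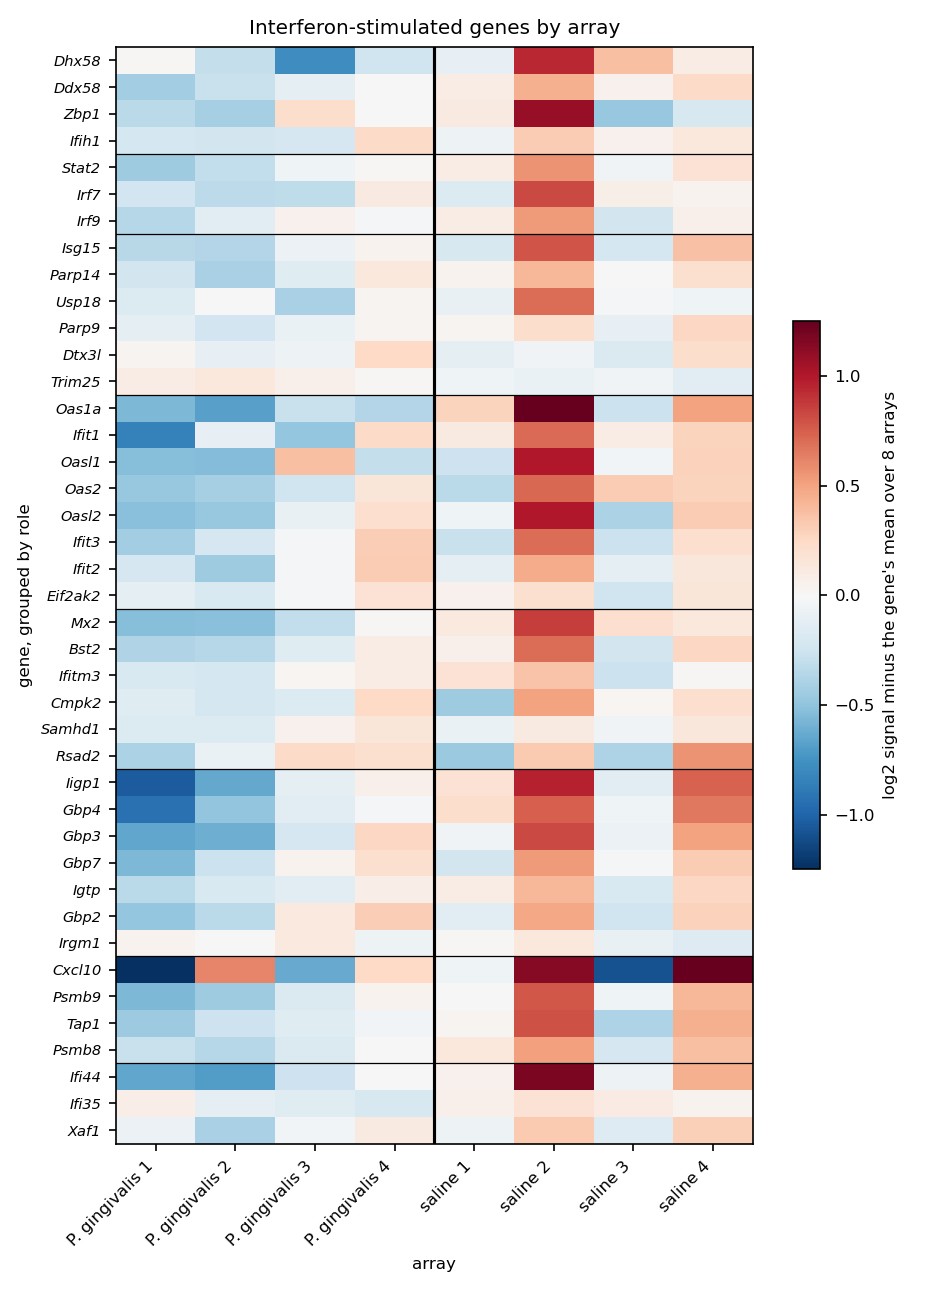
Log2 signal of each of the 41 members (rows, grouped by role) minus its own mean over the 8 arrays, P. gingivalis 1 to 4 left of the line and saline 1 to 4 right of it. Red is above and blue below the gene's mean, with the colours ending where the scale bar ends. Saline 2 is the highest array for 35 genes, and P. gingivalis 1 or 2 is the lowest for 30.

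Much of the size of the difference rested on saline 2. Without it, 35 of the 41 members were lower, where 53.0% of all genes were, and the members' median was -0.17. The difference of 39 members moved nearer to 0, and those of Ifit3, Rsad2 and Zbp1 changed sign. Oas1a, Gbp4, Iigp1 and Ifi44 stayed below -0.5, at -0.64, -0.67, -0.69 and -0.54. At an unadjusted p under 0.05, 5 members were then lower, beside 7.91% of all genes, and 0 passed the adjusted threshold in limma's fit, where 0.00897% of all genes did in that direction.

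Other single arrays moved the counts too. Members lower at an unadjusted p under 0.05 numbered 6 without P. gingivalis 1 (8.46% of all genes), 5 without P. gingivalis 2 (7.69%), 9 without P. gingivalis 3 (7.91%) and 16 without P. gingivalis 4 (8.73%). They numbered 14 without saline 1 (8.03%), 16 without saline 3 (10.5%) and 7 without saline 4 (8.37%). Members whose groups did not overlap in the lower direction numbered 12 without P. gingivalis 4 (8.87% of all genes) and 12 without saline 3 (9.84%), and 5 without P. gingivalis 1 (8.64%) or saline 1 (7.99%). Leaving out any 1 of the 8 arrays kept 35 to 39 members lower, with a median between -0.43 and -0.17.

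**Figure D4:**
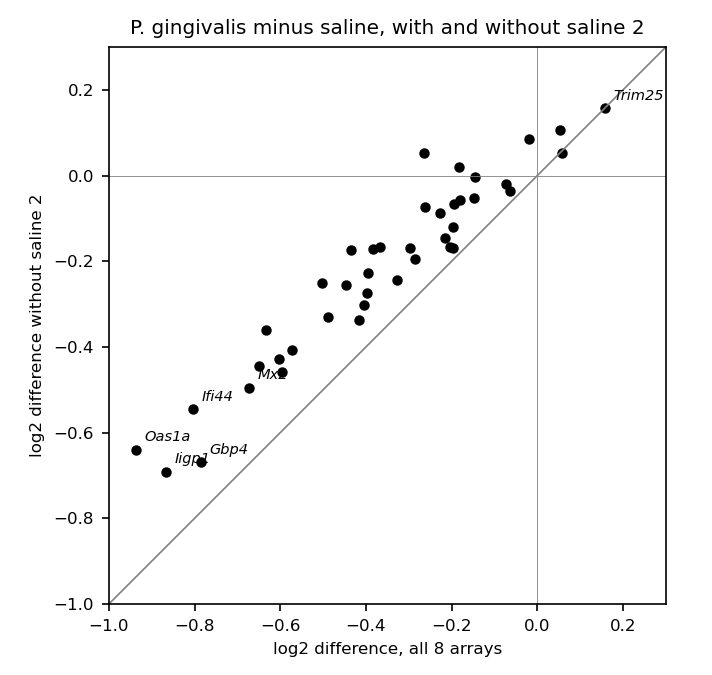
Log2 difference, P. gingivalis minus saline, of the 41 members with all 8 arrays (horizontal axis) and without saline 2 (vertical axis), with the line of equality. Without saline 2, 39 of 41 members lay nearer to 0 and 3 had the other sign.

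Brightness of the probes also moved with the differences. Genes were split into 4 equal classes by mean log2 signal. In the dimmest class all genes had a median of -0.06 and its 5 members, all lower, one of -0.65. In the next class the medians were -0.03 for all genes and -0.36 for 16 members, all lower. In the third they were 0.001 and -0.33, with 15 of 17 members lower, and in the brightest 0.01 and -0.15, with 2 of 3 lower. The part of probe brightness in the result was not tested.

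Markers of other cell types moved with the members on some arrays. Of 12 macrophage markers 11 were tested, and 10 of them were lower with a median of -0.28, none at an unadjusted p under 0.05 in limma's fit, and Fcgr1 was not well above background on enough arrays. Their mean level was -0.49, -0.82, -0.04 and -0.13 on P. gingivalis 1 to 4 and -0.12, 0.55, -0.86 and 0.40 on saline 1 to 4. Saline 2 and saline 4 were thus the highest for macrophage markers and for the members, while saline 3 and P. gingivalis 2 were the lowest for macrophage markers. Endothelial markers were lower in 12 of 15 with a median of -0.13, and neutrophil markers in 7 of the 8 tested of 11 with a median of -0.24, with Ngp, Ltf and Retnlg not tested. Of the neutrophil markers 4 were lower at an unadjusted p under 0.05, S100a8 at -2.21, S100a9 at -2.10, Cxcr2 at -1.45 and Csf3r at -0.24. Of the endothelial markers 3 were lower and 1 higher at that p. Among all genes 9.69% were lower and 10.0% higher, and none of these markers passed after adjustment in limma's fit. Cxcr2 was well above background on only 1 P. gingivalis array and 3 saline arrays. Csf3r averaged 6.02 on the P. gingivalis arrays and 6.26 on the saline arrays. The next brightest neutrophil marker tested, Elane, averaged -0.01 and -0.08. Whether the Csf3r probe reads neutrophils in this muscle was not tested. For S100a8 and S100a9, saline 1 and 2 were the highest, and saline 3 lay below P. gingivalis 3. The endothelial genes Kdr, Egfl7 and Ptprb were lower with no overlap between the groups, which is 20% of that list beside 6.09% of all genes. The 4 plasmacytoid dendritic cell markers had a median of 0.02. Of these, Siglech was as bright as Csf3r, at 6.50 on the P. gingivalis arrays and 6.55 on the saline arrays, and which cells its probe reads was not tested. Of the T and NK cell markers 5 of 9 were tested, of which 3 were lower with a median of -0.09, and Cd3g, Cd8a, Klrb1c and Ncr1 were not. B cell markers had a median of -0.23 over 4 of 5, with Cd79b, at -1.69, the 1 of them past an unadjusted p of 0.05, fibroblast markers 0.01 over 7 and adipocyte markers -0.08 over 6. Cd79b had no value on saline 1. Genes of the slow fibre list were higher in 8 of 9 with a median of 0.14, fast fibre genes in 9 of 9 with 0.16, and red blood cell genes in 6 of 6 with 0.57. At an unadjusted p under 0.05 in limma's fit, 5, 2 and 1 of these were higher, beside 10.0% of all genes. The groups did not overlap for 5, 3 and 1 of them, beside 7.33% of all genes in that direction. Myh2, a fast myosin gene on the slow list, is in each of the slow counts, at 0.17. Myh4, on the fast fibre list, lay at 1.95 on saline 1 and 7.70 on saline 3. The part of these cell types in the members' result was not tested.

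**Figure D5:**
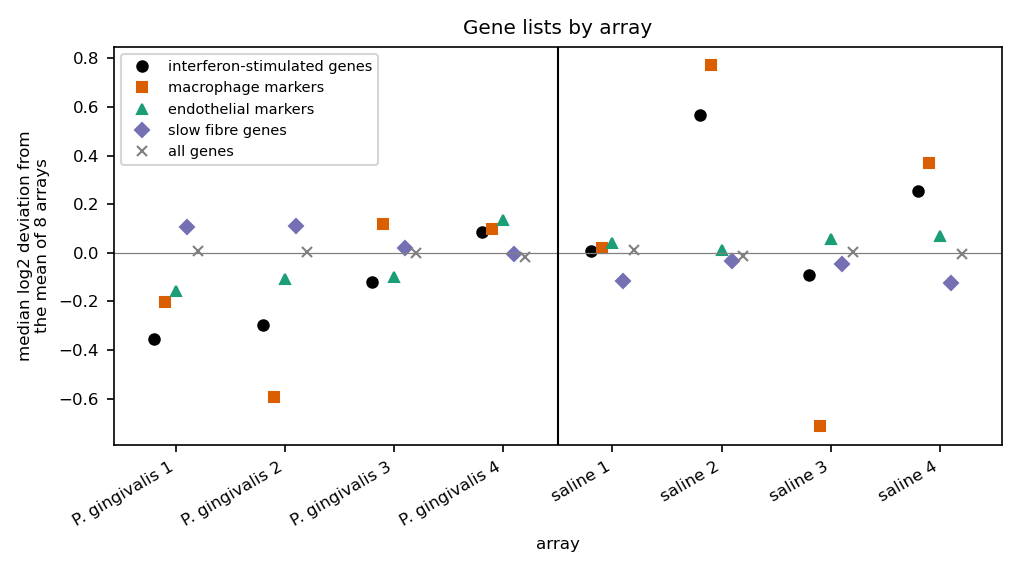
Median, over the genes of a list, of the log2 deviation from each gene's mean over 8 arrays (vertical axis), by array, P. gingivalis left of the line and saline right of it. Circles are the 41 members, squares 11 macrophage markers, triangles 15 endothelial markers, diamonds the 9 genes of the slow fibre list (the fast myosin gene Myh2 included) and crosses all genes. The members and the macrophage markers are both highest on saline 2, at 0.56 and 0.77, and part on saline 3, at -0.09 and -0.71.

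The genes upstream of the members had a median close to that of all genes. Of 37 listed genes for interferons, their receptors, sensing and inhibition, 31 were tested, of which 15 were lower and 16 higher, with a median of 0.0059, which took either sign under other settings. None passed in limma's fit, and at an unadjusted p under 0.05 there were 4 lower and 3 higher, beside 9.69% and 10.0% of all genes. Of the 7 listed interferon genes 2 were tested. Ifnl3 was well above background on 4 arrays of each group and differed by -0.04. Ifna1 was so on 4 P. gingivalis and 2 saline arrays and differed by 0.17. The interferon genes Ifnb1, Ifng and Ifna4 were well above background on 0 arrays, and Ifna2 was so on 2 P. gingivalis arrays by 1 of its probes. The receptor genes had differences of 0.01 for Ifnar1, -0.06 for Ifnar2, 0.05 for Ifngr1 and 0.09 for Ifngr2. Il10rb, a chain that the type III interferon and interleukin-10 receptors share, differed by -0.15.

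Jak2, a kinase of the type II receptor, stood at 0.65, 0.52, 0.57 and 0.69 on P. gingivalis 1 to 4 and 0.36, 0.36, 0.43 and 0.36 on saline 1 to 4. It was higher on every P. gingivalis array, by 0.23 ± 0.06 (limma, adjusted p = 0.101), and a dimmer probe was at -0.15.

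The DNA sensing genes Mb21d1, which encodes cGAS, and Tmem173, which encodes STING, differed by -0.44 ± 0.12 and -0.52 ± 0.14, and neither passed (limma, adjusted p = 0.115 and 0.116). Traf3, an adaptor between sensors and kinases, differed by -0.29 ± 0.07 (limma, adjusted p = 0.0989). Traf3 passed the threshold with a trended variance, where 2.49% of all genes did, and with no filter, where 14.0% did. With median centring, 4 of the 31 genes followed across settings passed, where 10.7% of all genes did. Trim25 was the only member among them. The signalling inhibitor Socs1, itself an interferon-induced gene, differed by -0.47 ± 0.15 (limma, adjusted p = 0.152). Irf2, often a repressor at the ISRE, was higher by 0.30 ± 0.11 (limma, adjusted p = 0.19). Ptpn6, a phosphatase, was at 0.26 ± 0.08 (limma, adjusted p = 0.149), and its other kept probes were at -0.53 and -0.40.

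Members with and without the ISRE core in the promoter were alike in direction. The 17 tested members with it had a median of -0.30 and 16 were lower, and the 15 with a promoter but no core had a median of -0.23 and 13 were lower. These ranges overlapped, from -0.94 to 0.05 and from -0.80 to 0.16. Among genes that are not members, the 438 with the core had a median of -0.03, with 56.4% lower, and the 11875 without it had a median of -0.01, with 52.2% lower. Oas1a and Ifit1 at -0.94 and -0.59, Isg15 at -0.37, and Irgm1 at 0.05 all carry more than 1 core in the runs printed above.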

How the data were processed

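RNA from 8 soleus samples was measured on 1-colour Agilent mouse arrays, 1 array per sample. The deposited spot intensity values (processed signal, background-subtracted) came from Agilent Feature Extraction 11.0.1.1, per the file headers, while the submitters' processing notes list version 11.1. Probe positions are of build mm9, per the file headers.

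Log2 of each spot's intensity was taken, less the 75th percentile of that array over all spots that are not controls, flagged ones included. These spots belong to 56605 probes. Spots with outlier flags were then left out (466 probes on at least 1 array), and 33748 probes well above background on at least 4 arrays were kept. The brightest kept probe on average stood for a gene. The test was limma's (version 3.58.1, R 4.3.3; lmFit, then eBayes), two-sided and without covariates, with Benjamini-Hochberg adjustment over all 22291 genes, and the fit was tested on simulated data. No spot was saturated, and all arrays came from 1 scan. Array 75th percentiles lay between 648 and 764 intensity units, and arrays correlated at 0.989 to 0.995 within groups and 0.989 to 0.992 between groups. The number of arrays limits the precision.

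The authors' deposited table holds 28250 rows of log2 values with p-values, of which 431 have an adjusted p-value under 0.05. Among the deposited columns, those with a score (a moderated statistic and log odds) were left aside, and 0 columns of samples outside the series were found. How the table was normalized is not given in the sources used here.

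The members and lists were chosen with earlier results of these data known. Values are given for each member with an unadjusted p under 0.05 or groups that do not overlap, for the 2 brightest tested members of each role, and for pathway genes with an unadjusted p under 0.05 plus receptors and the tested interferon genes. Of the listed pathway genes, 1 is not reported here and was left out of that list's counts. Of the 61 member probes with a RefSeq accession in the table of assembly GRCm38.p6, 61 carry the same symbol there. Promoters, 250 bases before to 50 after the start, were searched for the motifs on both strands. Other settings tried were normexp, 3 scalings, 2 filters for dim probes, the mean of a gene's probes, a replicate block, 2 variance models, the authors' deposited table and leaving out each array.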

Additional observations from a re-analysis of the deposited data

Results flagged for a closer look

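In 6 of 108 groups of 4 arrays looked at, among 53 genes given above and the members' median deviation, 1 array lay far from the other three, with a gap to its nearest neighbour past Dixon's critical value for 4 values. Chance gives such a gap in about 5% of groups. Ifih1, the gene of the RNA sensor MDA5, stood at -1.73 on P. gingivalis 4, and the nearest other P. gingivalis array was at -2.18, a gap of 0.963 of the range. Mx2, a dynamin-like GTPase, stood at -2.44 on saline 2, and the nearest other saline array was at -3.10, a gap of 0.882 of the range. Jak2, a kinase of the type II interferon receptor, stood at 0.43 on saline 3, and the nearest other saline array was at 0.36, a gap of 0.88 of a range that was narrow in that group. Usp18, which removes ISG15 from proteins, stood at -1.56 on saline 2, and the nearest other saline array was at -2.29, a gap of 0.915 of the range. Cmpk2, a nucleotide kinase gene, stood at -1.40 on P. gingivalis 4, and the nearest other P. gingivalis array was at -1.80, a gap of 0.849 of the range. Ifnar2, a chain of the type I receptor, stood at 0.044 on saline 3, and the nearest other saline array was at 0.30, a gap of 0.835 of the range.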

How the results depend on the processing

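The members' median difference was negative and 33 to 40 members were lower under each of the other 18 settings on the scanner files, and positive in the authors' deposited table, where the columns hold the groups exchanged. By those column names the members' median was 0.25, 4 of 41 members were lower, 361 genes passed, and differences were 0.32 for Ddx58, 0.13 for Ifih1, 0.28 for Dhx58, 0.18 for Irf7, 0.29 for Irf9, 0.33 for Stat2, 0.34 for Isg15, -0.18 for Trim25, 0.25 for Parp14, 0.34 for Ifit1, 0.22 for Ifit3, 0.85 for Oas1a, 0.47 for Oas2 and 0.39 for Mx2. In the same authors' deposited table they were 0.11 for Samhd1, 0.15 for Ifitm3, 0.76 for Gbp4, -0.041 for Irgm1, 0.87 for Iigp1, 0.40 for Psmb8, 0.50 for Psmb9, 0.061 for Ifi35, 0.39 for Ifi44, 0.053 for Xaf1, -0.10 for Jak2, 0.52 for Tmem173, 0.089 for Mb21d1, 0.20 for Traf3, -0.33 for Irf2, 0.20 for Socs1 and -0.29 for Ptpn6. For 7 of these 31 genes that table's probe is another one than was used here, and the Ifi35 probe it holds was at 0.12 on the scanner files too.

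Genes past the threshold numbered 26, against 453 with normexp, 197 with quantile normalization, 2377 with median centring, 260 with the filter on all 8 arrays, 5174 with no filter, 9 with the mean of a gene's probes, 554 with a trended and robust variance, 200 with array weights and 2 to 7 with 1 array left out. With the 75th percentile over probes above background on all arrays, 37 genes passed the threshold. Members past it numbered 1 with median centring (Trim25) and 1 with no filter (Mx1, limma, adjusted p = 0.0302, well above background on 0 arrays), and 0 to 0 with 1 array left out. The pathway genes' median was 0.044 with normexp, 0.15 with median centring, -0.050 with no filter and -0.031 in the authors' deposited table, against 0.0059, and -0.021 to 0.0031 with 1 array left out. Samhd1 was at 0.085 with median centring and 0.022 with the mean of its probes, Ifitm3 at 0.0018 with median centring, Ptpn6 at -0.22 with the mean of its probes, and Ifit3 between -0.32 and 0.020 with 1 array left out. Median centring adds 1 amount to all genes of an array, and the cause of the other changes was not tested.

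In the fit with a replicate block, 0 genes passed, the members' median was -0.33, and 10 members were lower at an unadjusted p under 0.05, beside 9.85% of all genes. Same-numbered arrays, which held the same place on their sides of the slide, deviated together with correlations of 0.06, -0.06, -0.04 and 0.23. Whether the numbers pair the samples is not stated in the labels, and these correlations cannot settle it. With 4 arrays a group, signal over background limits Cxcl10, Mx1 and Oas3, and the slide's sides cannot be told apart from the groups.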
